A study of Homo sapiens with 3 samples.

Results

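The genes described here code for enzymes and regulators of cholesterol synthesis. There were 8 of them (HMGCS1, SQLE, INSIG1, IDI1, FDFT1, LSS, DHCR7 and SREBF2), chosen by gene symbol, and each was found once among the 58735 genes of the expression table. They were measured by RNA-seq in H660, a neuroendocrine prostate cancer (NEPC) line that the sample records list as parental and as prostatic adenocarcinoma. The 3 groups were H660 cells given the vehicle DMSO, H660 cells given 2.5 µM JG231 and H660 cells given 5 µM JG231, all for 24 h, with 1 library in each. JG231 is an allosteric inhibitor of the chaperone HSP70. The culture medium of all 3 groups held serum, insulin, hydrocortisone and beta-estradiol according to the methods of the study. With no second library of any group, no standard deviation and no p-value can be given for a gene.

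Cells make cholesterol from acetyl-CoA through mevalonate, isoprenoid units, squalene and lanosterol. Transcription of the pathway is set by SREBP-2, the product of SREBF2, which leaves the endoplasmic reticulum with its escort SCAP when membrane sterol is low and is held there by INSIG proteins when sterol is high. Most enzymes of the pathway, INSIG1 and SREBF2 itself are known targets of SREBP-2, so they are commonly read together as a measure of sterol demand. In prostate cancer, cholesterol is also a precursor of steroid hormones.

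Promoters of 4 of the genes are shown because their levels behaved differently in the 3 libraries. INSIG1 was the furthest below DMSO at 2.5 µM, LSS was lower mainly at 5 µM, HMGCS1 was the one gene above DMSO at 2.5 µM, and SREBF2 held the only match to the sterol motif searched. The sequences are from RefSeq on GRCh38.p14, of which 6 of the 8 genes had an entry. They run 5′ to 3′ on the strand of the gene, from 250 bases before the transcription start to 50 bases after it. The intervals are chr7:155297628-155297927 on the plus strand for INSIG1, chr21:46228725-46229024 on the minus strand for LSS, chr5:43313363-43313662 on the minus strand for HMGCS1 and chr22:41832855-41833154 on the plus strand for SREBF2. Capitals mark every match to the letters searched on both strands.
INSIG1: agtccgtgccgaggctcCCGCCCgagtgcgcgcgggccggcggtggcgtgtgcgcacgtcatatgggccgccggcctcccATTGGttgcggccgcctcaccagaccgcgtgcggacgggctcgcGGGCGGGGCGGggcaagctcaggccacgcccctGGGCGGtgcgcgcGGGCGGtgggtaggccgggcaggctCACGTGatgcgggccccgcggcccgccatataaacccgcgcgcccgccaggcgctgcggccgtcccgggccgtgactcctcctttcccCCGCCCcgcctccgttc
LSS: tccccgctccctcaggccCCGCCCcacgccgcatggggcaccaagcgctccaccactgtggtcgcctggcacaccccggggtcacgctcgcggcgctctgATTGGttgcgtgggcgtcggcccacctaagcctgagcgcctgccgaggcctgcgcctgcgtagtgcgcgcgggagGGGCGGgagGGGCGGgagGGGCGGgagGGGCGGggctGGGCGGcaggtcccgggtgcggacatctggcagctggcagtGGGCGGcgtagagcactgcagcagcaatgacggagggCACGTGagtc
HMGCS1: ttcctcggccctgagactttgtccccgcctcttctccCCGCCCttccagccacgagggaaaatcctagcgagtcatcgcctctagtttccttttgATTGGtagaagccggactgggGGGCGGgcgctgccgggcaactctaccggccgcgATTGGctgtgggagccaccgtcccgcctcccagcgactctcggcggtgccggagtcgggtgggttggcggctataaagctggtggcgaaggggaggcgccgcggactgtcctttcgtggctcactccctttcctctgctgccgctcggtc
SREBF2: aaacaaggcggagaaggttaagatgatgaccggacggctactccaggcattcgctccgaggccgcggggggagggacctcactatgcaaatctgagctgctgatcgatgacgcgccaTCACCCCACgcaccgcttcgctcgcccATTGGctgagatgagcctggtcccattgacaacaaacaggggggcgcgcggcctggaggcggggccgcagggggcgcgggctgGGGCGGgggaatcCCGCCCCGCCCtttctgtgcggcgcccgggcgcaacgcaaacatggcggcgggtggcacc

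Of the letters searched, TCACNCCAC is a core of the sterol regulatory element bound by SREBPs. It was found in 1 of the 6 promoters, that of SREBF2, where TCACCCCAC began at position -133, counted from the start base as 0, and in 1.13% of 35116 promoters of the same length. CCAAT, read as ATTGG on the other strand and bound by NF-Y, a partner of SREBPs, was found in 6 of 6 and in 34.6% of all promoters. GGGCGG, the letters of the Sp1 site, also occurred in 6 of 6, against 45% of all promoters. The E-box CACGTG, which MYC proteins bind, was found in 2 of 6, at position -55 in INSIG1 and position 40 in LSS, against 7.26% of all promoters. Neighbouring matches to GGGCGG overlapped in INSIG1 and SREBF2. A match to these letters is a description of the sequence, and binding was not measured in these data.

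The DMSO library held about 16100000 fragments, recovered from the steps of the values, the 2.5 µM library about 20400000 and the 5 µM library about 24000000. The values are FPKM, fragments scaled to the length of the transcript and to the size of the library, as the authors deposited them. Of the summed FPKM, genes of the mitochondrial genome took 39.8% in DMSO, 24.1% at 2.5 µM and 28.8% at 5 µM. Of 8 neuroendocrine markers, 6 were above 1 FPKM in DMSO and 7 in each JG231 library, SYP, CHGA, ENO2, NCAM1 and INSM1 in all 3, and 0 of 5 luminal prostate markers were above 1 FPKM in any library, with KLK2 listed at 0 throughout. CHGA, a granule protein of neuroendocrine cells, had 46 FPKM in DMSO, 15 at 2.5 µM and 12.7 at 5 µM, and SYP, a synaptic vesicle protein, had 17.7, 13 and 14.8 FPKM. INSM1 instead had 13.4 FPKM in DMSO, 16.3 at 2.5 µM and 10.5 at 5 µM. The part of these marker differences in the results below was not tested. Of 6 markers of fibroblasts, endothelial cells and leukocytes, 1 was above 1 FPKM in any library (COL1A1, 1.27 at 5 µM), and DCN, PECAM1 and PTPRC were listed at 0 throughout. In bulk RNA, fewer cells with a transcript and less transcript per cell cannot be told apart.

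The 8 genes were expressed in every library. Their sum was lower in both JG231 libraries than in DMSO, while HMGCS1 alone was above DMSO at 2.5 µM. Their summed FPKM was 107 in DMSO, 80 at 2.5 µM and 75.7 at 5 µM. SQLE and INSIG1 were the furthest below DMSO at both doses, by 45.1% and 51.0% at 2.5 µM and by 58.8% and 55.6% at 5 µM. IDI1, FDFT1 and HMGCS1 stayed within 20 percentage points of their DMSO level at both doses.

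**Figure D1:**
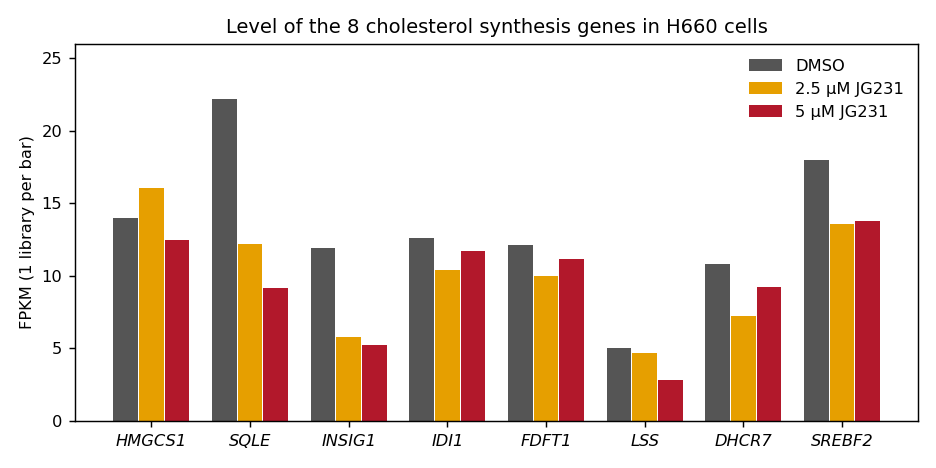
FPKM (y axis) of each of the 8 genes (x axis) in the DMSO, 2.5 µM JG231 and 5 µM JG231 libraries; each bar is 1 library, so there is no error bar. The bars of SQLE step down from 22.2 to 12.2 and 9.15, those of INSIG1 drop from 11.9 to 5.82 and 5.27, and those of IDI1 and FDFT1 stay between 10 and 12.6.

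Changes were taken as log2((FPKM + 0.1)/(FPKM in DMSO + 0.1)), a scale that understates the change of low genes. A gene was counted as higher or lower when it had an FPKM over 1 in either library and a change of more than 0.25. At 2.5 µM, 6 of the 8 genes were lower and 0 were higher, while 43.4% of the 15746 genes that passed the same expression filter were lower and 36.4% were higher. At 5 µM, 4 of 8 were lower and 0 were higher, against 45.1% lower and 36.5% higher of 15765 genes, so the share lower at 5 µM was close to that of all genes that passed, many of them weakly expressed. The median change of the 8 genes was -0.34 at 2.5 µM and -0.30 at 5 µM, beside -0.08 and -0.11 over all genes that passed. By a change of more than 1, INSIG1 alone was lower at 2.5 µM (1 of 8), where 21.7% of all genes were lower and 12.9% higher. At 5 µM SQLE and INSIG1 were lower by more than 1 (2 of 8), where 24.3% of all genes were lower and 14.7% higher. The same DMSO library served for both doses, so the changes at the 2 doses are not independent of each other.

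Higher genes made up 45.6% of changed genes at 2.5 µM and 44.7% at 5 µM, and 64.8% and 64.1% where the mean FPKM over the 3 libraries reached 5, as it did for the 8 genes except LSS. Of the 7583 genes at that level, 26.1% were lower at 2.5 µM and 27.4% at 5 µM, beside 6 and 3 of the 7 genes. That mean includes both JG231 libraries, so it leaves out genes for being lower there, as with LSS, and the shares at that level are a description that supports no contrast with the 8 genes. Over all genes that passed the filter, the change of INSIG1 stood at percentile 21.3 at 2.5 µM and 21.6 at 5 µM. That of SQLE stood at percentile 24.7 and 20.1. As a measure of how far single genes differed between treated libraries, the robust standard deviation of their log2 difference at 5 µM from 2.5 µM was taken over the 500 genes closest in mean FPKM. It was 0.28 for SQLE and SREBF2, 0.34 for INSIG1, 0.53 for LSS and between 0.29 and 0.32 for the other 4 genes. This spread includes any effect of dose and is not an error between replicates. Intervals given below for a change are 95% intervals from fragments, which cover counting error only and would be too narrow if fragments were PCR copies. Fragment numbers were computed with the length of the canonical transcript and are approximate, since each gene has between 6 and 21 annotated transcripts.

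**Figure D2:**
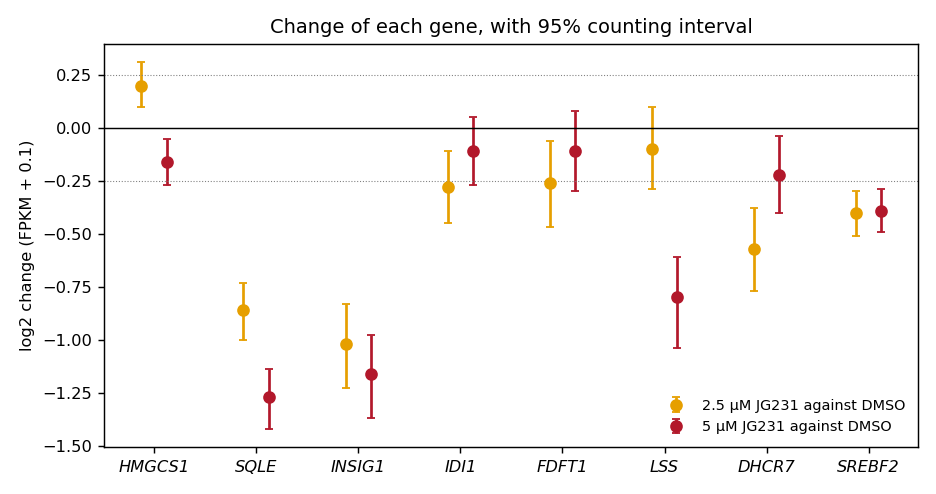
log2 change of FPKM + 0.1 (y axis) of each gene (x axis) at 2.5 µM and 5 µM JG231 against DMSO; points are single libraries, bars are 95% counting intervals, and dotted lines mark 0.25 and -0.25. SQLE and INSIG1 lie between -0.86 and -1.27 at both doses, LSS is near the zero line at 2.5 µM and at -0.80 at 5 µM, and HMGCS1 lies on either side of it.

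HMGCS1 (ENSG00000112972, chromosome 5, 43287470 to 43313512, minus strand) codes for cytosolic HMG-CoA synthase, which makes HMG-CoA, the precursor of mevalonate. It had 14 FPKM in DMSO, 16.1 at 2.5 µM and 12.5 at 5 µM. The changes were 0.20 (interval 0.10 to 0.31) and -0.16 (-0.27 to -0.05), both under the threshold and under its spread of 0.29. HMGCS1 therefore stood on different sides of DMSO at the 2 doses, and the side depended on the scaling. With libraries rescaled to a common sum that left out mitochondrial and small RNA genes, its changes were -0.09 at 2.5 µM and -0.54 at 5 µM. With the trend of change with transcript length removed they were 0.32 and 0.08. The values of -0.54 and 0.32 passed the threshold, in opposite directions. An antisense long non-coding RNA, ENSG00000261604, overlaps 37.7% of its exonic bases and was listed at 0.0498 FPKM in DMSO and at 0 in both JG231 libraries.

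IDI1 (ENSG00000067064, chromosome 10, 1039152 to 1049119, minus strand) is the isomerase that interconverts both isoprenoid building units. It had 12.6 FPKM in DMSO, 10.4 at 2.5 µM and 11.7 at 5 µM, which is 17.7% and 7.23% below DMSO. Its change at 2.5 µM was -0.28 (interval -0.45 to -0.11), just past the threshold and within its spread of 0.29. At 5 µM it was -0.11, and the interval, -0.27 to 0.05, included 0. Its changes were -0.39 and -0.25 once the length trend was removed. IDI2-AS1, on the opposite strand, shares 15% of the exonic bases of IDI1 and reached at most 0.231 FPKM.

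FDFT1 (ENSG00000079459, chromosome 8, 11795573 to 11839395, plus strand) is squalene synthase, the first enzyme committed to sterols. Its level was 12.1 FPKM in DMSO, 10 at 2.5 µM and 11.2 at 5 µM. The changes of -0.26 (interval -0.47 to -0.06) and -0.11 (-0.30 to 0.08) closely matched those of IDI1 in size, and both were within its spread of 0.30. FDFT1 was thus counted as lower at 2.5 µM by a margin of 0.01 on the log2 scale. With the length trend removed its changes were -0.47 and -0.40, past the spread and past the threshold at both doses.

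SQLE (ENSG00000104549, chromosome 8, 124998497 to 125022283, plus strand) is squalene epoxidase, the first oxygen-requiring step and a control point of the late pathway. It was the highest of the 8 genes in DMSO, at 22.2 FPKM, with 12.2 at 2.5 µM and 9.15 at 5 µM. The level was lower at the higher dose as well as lower than DMSO at both. The changes were -0.86 (interval -1.0 to -0.73) and -1.27 (-1.42 to -1.14), 3 or more times its spread of 0.28. Between the JG231 libraries it differed by -0.41 (-0.57 to -0.26).

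LSS (ENSG00000160285, chromosome 21, 46188141 to 46228824, minus strand) is lanosterol synthase, which closes the sterol rings. It was the lowest of the 8 genes in all 3 libraries, at 5.04 FPKM in DMSO, 4.70 at 2.5 µM and 2.85 at 5 µM. At 2.5 µM it was hardly below DMSO, with a change of -0.10 and an interval of -0.29 to 0.10, and at 5 µM it was lower by 43.5%. That change, -0.80 (interval -1.04 to -0.61), rests on 334 fragments at 5 µM against 396 in DMSO, and it exceeds its spread of 0.53. The canonical transcript of LSS has 4886 bp, and the median change of genes in its length decile was -0.12 at 2.5 µM and -0.21 at 5 µM. With the length trend removed, the change of LSS was -0.61 at 5 µM and -0.01 at 2.5 µM.

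DHCR7 (ENSG00000172893, chromosome 11, 71428193 to 71452868, minus strand) is 7-dehydrocholesterol reductase, the last enzyme of one branch to cholesterol. It had 10.8 FPKM in DMSO, 7.23 at 2.5 µM and 9.26 at 5 µM, so that the lowest level was at the lower dose. It was 33.0% below DMSO at 2.5 µM, a change of -0.57 (interval -0.77 to -0.38), and 14.2% below it at 5 µM, where the change of -0.22 (-0.40 to -0.04) did not pass the threshold. DHCR7 was the one gene of the 8 higher by more than 0.25 at 5 µM than at 2.5 µM, by 0.35. Removing the length trend gave -0.70 and -0.38, past the threshold at both doses.

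INSIG1 (ENSG00000186480, chromosome 7, 155297776 to 155310235, plus strand) codes for the sterol-dependent retention protein of the SCAP and SREBP complex in the endoplasmic reticulum. Its transcript is among the most sterol-responsive known. It had 11.9 FPKM in DMSO, 5.82 at 2.5 µM and 5.27 at 5 µM. The 2 JG231 libraries were close to each other and both were less than 50 percent of the DMSO level. The changes were -1.02 (interval -1.23 to -0.83) and -1.16 (-1.37 to -0.98), about 3 times its spread of 0.34, and between the doses it differed by -0.14 (-0.36 to 0.07). Its promoter, shown above, held 6 matches to the Sp1 letters and 1 E-box.

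SREBF2 (ENSG00000198911, chromosome 22, 41833105 to 41907306, plus strand) codes for SREBP-2. It had 18.0 FPKM in DMSO, 13.6 at 2.5 µM and 13.8 at 5 µM. Both JG231 libraries were at the same lower level, with changes of -0.40 (interval -0.51 to -0.30) and -0.39 (-0.49 to -0.29), against a spread of 0.28. With the length trend removed they were -0.29 and -0.16, so the change at 5 µM was then under the threshold and within the spread. SREBF2-AS1, an antisense transcript that shares 9.08% of its exonic bases, had 2.97 FPKM in DMSO, 2.53 at 2.5 µM and 0.709 at 5 µM. The sources used here do not say if counting took strand into account, so reads of the overlapping stretch cannot be assigned with certainty. RNA level says nothing of how much SREBP-2 was processed to its nuclear form.

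The order of the levels, which FPKM allows since it is per length, differed between the libraries. In DMSO it ran SQLE, SREBF2, HMGCS1, IDI1, FDFT1, INSIG1, DHCR7 and LSS. HMGCS1, IDI1, FDFT1, INSIG1 and DHCR7 followed each other by 0.02 to 0.15 on the log2 scale. The steps were 0.30 from SQLE to SREBF2, 0.37 from SREBF2 to HMGCS1 and 1.1 from DHCR7 to LSS. The uncertainty of a step between different genes was not measured. At 2.5 µM HMGCS1 had rank 1 and SQLE rank 3. At 5 µM SREBF2 had rank 1 and SQLE rank 6, with the largest steps from SQLE to INSIG1 (0.80) and from INSIG1 to LSS (0.89). Among genes over 1 FPKM in the same library, SQLE was at percentile 87.6 in DMSO, 68.9 at 2.5 µM and 60.7 at 5 µM. Those genes numbered 14769, 13087 and 12886, so a percentile can differ between libraries without a change of the gene. HMGCS1 went from percentile 78.5 in DMSO to 76 at 2.5 µM, although its FPKM was higher there.

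Between the doses the genes did not follow a common direction. At 5 µM against 2.5 µM, 3 of 8 were lower (LSS, SQLE and HMGCS1, by -0.70, -0.41 and -0.36) and 1 was higher, where 30.1% of 14197 genes were lower and 26.8% higher. The median difference was -0.06, and -0.02 over all genes that passed. For LSS the interval of the difference was -0.93 to -0.52, and for HMGCS1 -0.46 to -0.26. SREBF2 differed by 0.01 (-0.09 to 0.12).

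The scaling of the libraries shifted all 8 genes together. A common sum that left out mitochondrial and small RNA genes moved the median protein-coding gene from 0.05 to -0.25 at 2.5 µM and from 0.02 to -0.36 at 5 µM. Under it 7 of 8 genes were lower at 2.5 µM and 8 of 8 at 5 µM, beside 56.4% and 60.2% of all genes. Higher genes made up 30.3% and 27.5% of all changed genes, against 45.6% and 44.7% as deposited. Relative to the median gene, the changes of SQLE and INSIG1 were -0.91 and -1.06 at 2.5 µM and -1.29 and -1.18 at 5 µM, and that of HMGCS1 was 0.15 and -0.18.

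**Figure D3:**
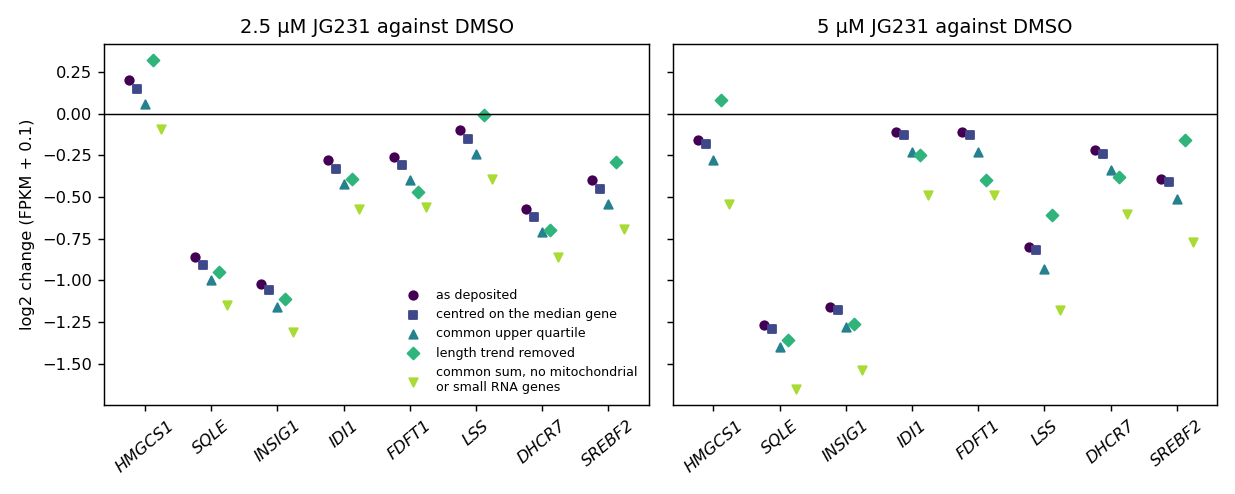
log2 change of FPKM + 0.1 (y axis) of the 8 genes (x axis) at 2.5 µM (left) and 5 µM (right) JG231 against DMSO under 5 treatments of the same values, 1 marker each. SQLE and INSIG1 remain below -0.80 under each of the 5, whereas HMGCS1 crosses the zero line at both doses.

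The other genes of the pathway were read from a list of 23 sterol synthesis enzymes that includes 6 of the 8 genes. Of 21 that passed the filter, 12 were lower and 1 was higher at 2.5 µM, with a median change of -0.27, and 11 were lower and 3 higher at 5 µM, with a median of -0.30. Over all genes that passed, 43.4% were lower and 36.4% higher at 2.5 µM, and 45.1% and 36.5% at 5 µM. The number of lower enzymes at 5 µM was thus near the background, and the number of higher enzymes was below it at both doses. Without the 6, the counts were 8 lower and 1 higher of 15 at 2.5 µM and 9 lower and 3 higher at 5 µM. LBR, the lamin B receptor with sterol reductase activity, had 26.4 FPKM in DMSO, 16.5 at 2.5 µM and 15.6 at 5 µM, changes of -0.68 and -0.75. HSD17B7, a keto-sterol reductase with a closely related pseudogene that may share its reads, had changes of -0.31 and -0.80. They rest on 122 fragments in DMSO, 124 at 2.5 µM and 103 at 5 µM. Of the genes of this list that passed the filter, 0 were higher by more than 0.25 at both doses. The share of all genes higher at both doses was not taken, so this count has no background and is only a description. CYP51A1, a sterol demethylase named here after its values were seen, was below the filter, at 0.52 FPKM in DMSO, 0.945 at 2.5 µM and 0.823 at 5 µM.

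The list of regulators of SREBP and sterol sensing held 14 genes, including SREBF2 and INSIG1. At each dose 7 were higher and 6 were lower, against 36.4% higher and 43.4% lower of all genes that passed at 2.5 µM and 36.5% and 45.1% at 5 µM, and the medians were 0.12 and 0.08. Without SREBF2 and INSIG1, 7 were higher and 4 lower of 12 at each dose, with medians of 0.41 and 0.43. Under the common sum described above, the medians of all 14 were -0.17 and -0.30, so their sign depended on the scaling. RNF139, an E3 ligase of the endoplasmic reticulum, had 21.1 FPKM in DMSO, 52.5 at 2.5 µM and 42.2 at 5 µM, and SEC24D, a coat protein of vesicles leaving it, had changes of 0.76 and 0.91. The proteases that release SREBPs in the Golgi were lower, MBTPS2 by -0.60 and -1.26 and MBTPS1 by -0.37 and -0.40. MARCHF6, an E3 ligase that acts on SQLE protein, had changes of -0.57 and -1.0.

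For uptake and intracellular transport of sterol, 9 of 16 genes were lower and 4 higher at 2.5 µM, and 8 were lower and 3 higher at 5 µM, with medians of -0.41 and -0.28. Of all genes that passed, 43.4% were lower and 36.4% higher at 2.5 µM, and 45.1% were lower and 36.5% higher at 5 µM, so the number lower at 5 µM was close to the background. Those medians were 0.32 and 0.06 once genes with a mean FPKM under 5 were left out, so the direction of this list depends on its weakly expressed genes. LRP8, a lipoprotein receptor also known for reelin signalling, had 6.68 FPKM in DMSO, 0.985 at 2.5 µM and 1.26 at 5 µM, changes of -2.64 and -2.32. LIPA, the lysosomal acid lipase, had changes of -1.16 and -1.28. MYLIP, an E3 ligase induced by LXR, was higher, at 8.92, 21.8 and 19.4 FPKM. The sterol transfer proteins STARD3 and GRAMD1A were higher by 0.48 and 0.32 at 2.5 µM and by 0.44 and 0.26 at 5 µM.

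Of 16 genes of sterol storage, efflux and LXR signalling, 6 passed the filter. At 2.5 µM 3 were higher and 3 lower, at 5 µM 2 and 2, with medians of 0.02 and 0.01, where 36.4% and 36.5% of all genes that passed were higher and 43.4% and 45.1% lower. APOE, a lipid carrier, was at 1.02 FPKM in DMSO on 19 fragments, 3.27 at 2.5 µM and 2.98 at 5 µM. NR1H2, which codes for LXR beta, was higher by 0.42 and 0.61. NR1H3, which codes for LXR alpha, had changes of -0.39 and -0.30. They rest on 115 fragments in DMSO, 110 at 2.5 µM and 138 at 5 µM, so counting error is large beside them. SOAT1, which esterifies cholesterol, had changes of -0.38 and -0.52.

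Genes of fatty acid synthesis are the main targets of SREBP-1. Of 16 that passed, 11 were lower and 4 higher at 2.5 µM, with a median of -0.96. At 5 µM 12 were lower and 4 higher, with a median of -0.64. Of all genes that passed, 43.4% were lower and 36.4% higher at 2.5 µM, and 45.1% and 36.5% at 5 µM. With the length trend removed the median at 5 µM was -0.51, beside -0.53 for sterol synthesis enzymes and -0.62 for uptake and transport. INSIG1 belongs to this list as well. SCD, the stearoyl-CoA desaturase, had 14.2 FPKM in DMSO, 4.80 at 2.5 µM and 4.13 at 5 µM. FADS2, a polyunsaturated fatty acid desaturase, had 23.4, 8.0 and 8.29 FPKM, and SCD5 had changes of -1.02 and -1.15. In the other direction, FADS3 was higher by 0.94 and 1.28, MID1IP1, an activator of acetyl-CoA carboxylase, by 0.86 and 1.13, and ELOVL1, an elongase of very long chains, by 0.37 and 0.86.

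The last list held genes that use mevalonate for other products. Of 17 that passed, 10 were higher and 3 lower at 2.5 µM, and 8 were higher and 2 lower at 5 µM, with medians of 0.36 and 0.22. Of all genes that passed, 36.4% were higher at 2.5 µM and 36.5% at 5 µM. Where the mean FPKM reached 5, which not all genes of this list did, 48% and 48.8% were higher. Under the common sum described above, the medians were 0.07 and -0.16. RABGGTB, a subunit of the geranylgeranyl transferase of Rab proteins, had 11.5, 28.4 and 27.6 FPKM, changes of 1.29 and 1.25. FNTB, a subunit of farnesyltransferase with a read-through neighbour that may share its reads, was higher by 0.52 and 0.98. DOLK, the dolichol kinase, had changes of -0.51 and -0.38.

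**Figure D4:**
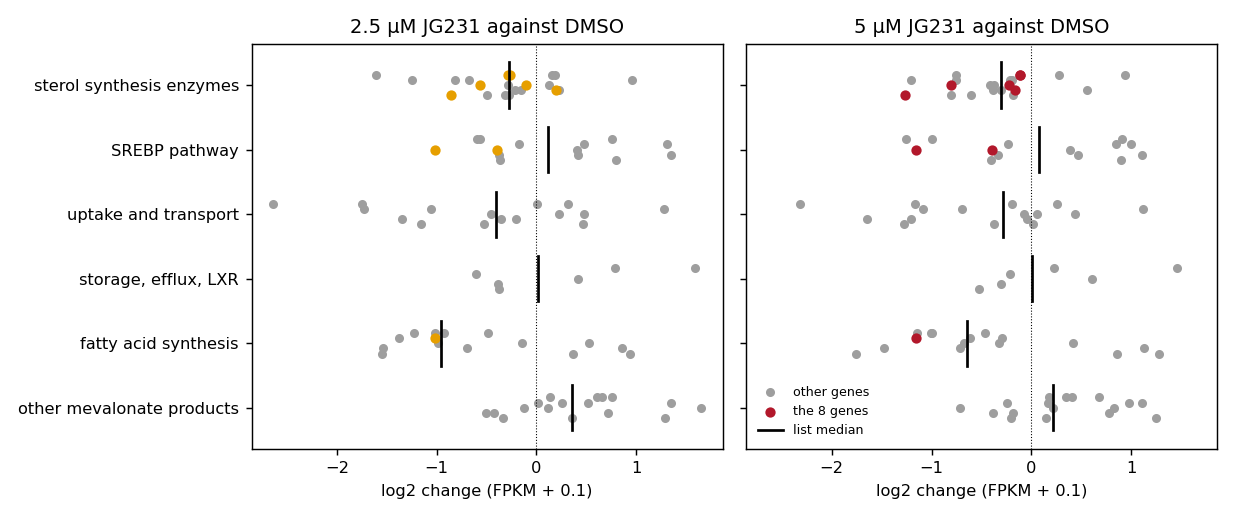
log2 change of FPKM + 0.1 (x axis) of the genes of 6 lists (y axis) at 2.5 µM (left) and 5 µM (right) JG231 against DMSO; each point is 1 gene that passed the filter, coloured points are the 8 genes, and black bars are list medians. Medians run from -0.96 for fatty acid synthesis to 0.36 for other mevalonate products at 2.5 µM, and from -0.64 to 0.22 at 5 µM.

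The pair of changes at the centre of the 8 genes, -0.34 at 2.5 µM and -0.30 at 5 µM, was the point from which likeness was measured. SQLE and INSIG1 lay far from that point. HMGCS1 (0.20 and -0.16) and LSS (-0.10 and -0.80) lay less far but also apart from that point. Among 7045 other protein-coding genes whose mean FPKM reached 5, 130 lay within a distance of 0.1 of it and 626 within 0.25. The 5 nearest were SRP9, B4GALT4, RHNO1, CRK and TM2D3, at distances of 0.018 to 0.025. B4GALT4 had 8.78 FPKM in DMSO, 6.93 at 2.5 µM and 7.01 at 5 µM. Likeness over 3 libraries rests on 2 numbers per gene and identifies no particular relation to these genes.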

How the data were processed

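RNA-seq values of H660 cells were read from 1 table of 58735 genes with 3 columns, 1 per library. The authors deposited FPKM values. Their methods name a TopHat and Cufflinks pipeline as well as HISAT and StringTie. The submitters' processing notes list HISAT2, featureCounts and the builds GRCh38 and hg38. Versions and the annotation release are not given in the sources used here. The input is described as 1 μg of RNA in the paper and as a smaller amount in the sample records. Doses and time were read from sample titles with the paper's methods.

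Genes were matched by identifier, since 27 symbols had been turned into dates, and annotated with GENCODE release 44 (GRCh38). Log2 changes used a pseudocount of 0.1, an FPKM over 1 in either library and thresholds of 0.25 and 1. Since FPKM are not counts and groups had 1 library, no test was run. The value of 1 fragment was found from FPKM multiplied by exon length in single-transcript genes, where 79.8% to 87.1% of values under 50 fragments were within 0.05 of whole numbers. Intervals are exact binomial on the fragments of both libraries. The 8 genes, the 6 lists and the markers were chosen with earlier results of these data known. Named genes are the 8 and, per list, up to 3 others in each direction with the largest change at 5 μM, changed past 0.25 with the same sign at both doses. Values of a few named genes and markers are not reported here. Likeness was the Euclidean distance between pairs of changes. The scripts were tested on simulated data. Software was matplotlib 3.10.9, statsmodels 0.14.6, scipy 1.17.1, pandas 2.3.3 and numpy 2.4.6 under Python 3.11.15.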

Additional observations from a re-analysis of the deposited data

How the results depend on the processing

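No paired analysis was possible because each group had 1 library, and for the same reason no replicate could be left out. Rescaling to a common sum without mitochondrial and small RNA genes moved most values. The median change of the 8 genes became -0.63 at 2.5 µM and -0.68 at 5 µM, and 8 genes were lower at 5 µM, where 60.2% of all genes were. The list medians became -0.56 and -0.68 for sterol synthesis enzymes, -0.17 and -0.30 for SREBP regulators, -0.65 and -0.75 for uptake and transport, -0.27 and -0.36 for storage, efflux and LXR, -1.28 and -1.05 for fatty acid synthesis, and 0.07 and -0.16 for other mevalonate products, at 2.5 and 5 µM. With the length trend removed, 1 of the 8 genes, HMGCS1, was higher at 2.5 µM, and the medians at 5 µM were -0.53 for sterol synthesis enzymes and -0.62 for uptake and transport. A threshold of 1 left 1 gene lower at 2.5 µM and 2 at 5 µM, with 0 higher and 0 lower between the doses. With a mean FPKM of at least 5 the uptake and transport medians turned to 0.32 and 0.06. With no filter on low values, those of storage, efflux and LXR were -0.39 and -0.41. A pseudocount of 1 moved the fatty acid synthesis median at 2.5 µM to -0.66. The causes of these shifts were not tested. The smallest fragment number behind a value of the 8 genes was 334, and the variation between replicates was not measured.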

Other observations

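The enzymes of the pathway can be read in their biochemical order, a grouping made after their values were seen. Of 9 expressed enzymes that lead to squalene, 5 were lower and 0 higher than DMSO at 2.5 µM, and 3 were lower and 2 higher at 5 µM, with median changes of -0.26 and -0.16. Of 12 expressed enzymes that lead from squalene to cholesterol, 7 were lower and 1 higher at 2.5 µM, and 8 were lower and 1 higher at 5 µM, with medians of -0.41 and -0.56. Of all genes that passed the filter, 43.4% were lower and 36.4% higher at 2.5 µM, and 45.1% and 36.5% at 5 µM. The ranges overlapped, from -0.60 to 0.94 before squalene and from -1.27 to 0.56 after it at 5 µM. The difference between the stages was not tested. TM7SF2, a sterol reductase named here after its values were seen, went from 9.65 FPKM in DMSO to 3.10 at 2.5 µM and 5.70 at 5 µM.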
